A study of Mus musculus with 48 samples.

Results

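The 7 genes described here, Ighv2-2, Ighv2-3, Ighv2-4, Ighv2-5, Ighv2-6, Ighv2-9-1 and Ighv2-6-8, are the D-near genes of the mouse Ighv2 family, long known as Q52. They are 7 of the 112 annotated VH genes of the immunoglobulin heavy chain locus (Igh) on chromosome 12 of the mm9 build. A junction was assigned to a gene when its position fell in a window of 26 to 93 bases around the end of that gene's coding exon. Each window spans exactly a cluster of junction positions pooled over the libraries used. Widening each window by 200 bases on both sides added 0 junctions. Within 20 bases of a window this follows from how the clusters were cut, so it is no independent check of the windows. Over 25 libraries the 7 windows held 44522 junctions, of which 12377 were distinct, or 7.35% of the 605816 junctions in the VH region. The libraries were made by LAM-HTGTS, which extends a primer placed at a bait, here the JH segments, across a joint and reads the DNA joined to it. The study asked how RAG reaches VH segments in pro-B cells when their orientation or the action of cohesin is changed.

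A heavy chain gene is assembled in 2 steps, D to JH and then VH to the DJH joint, and RAG cuts at a recombination signal sequence (RSS) next to each segment. RAG sits at the JH end of the locus, and cohesin, a ring that extrudes chromatin loops, reels distant segments toward it. The Ighv2 genes alternate with those of the Ighv5 family at the D-near end of the VH region, and many of both families carry a CTCF-binding element beside the RSS. CTCF halts cohesin, and such an element can hold its gene at RAG for a time. Wapl removes cohesin from chromatin, so that loops extend farther when it is lost.

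All cells came from RAG1-deficient mice or lines. Bone marrow (BM) pro-B cells on C57BL/6, purified on B220 beads and grown with IL-7 and SCF, gave 3 wild-type libraries used here (WT BM) and 4 with an Igh inversion whose ends the labels do not give (INV BM). The labels list RAG1 deficiency for the BM cells without naming a step that supplies RAG. The other 18 libraries, 3 a group, came from v-Abl transformed pro-B lines with Emu-Bcl2 and OsTIR1. These received RAG1/2 by retrovirus and were arrested for 4 days with STI-571, an Abl kinase inhibitor, at 3 uM. They were a line without the degron (parental), a Wapl-degron line and a Wapl-degron line labelled single Igh. Both degron lines were studied untreated and with 150 uM auxin (IAA) and 2 mg/mL doxycycline (Dox) over the last 3 days. A single-Igh INV line was studied with IAA/Dox only, and its inversion is named in its title and not in its genotype. Whether a line is 1 clone, and whether replicates are separate cultures or animals, is not stated, so p-values measure the spread between libraries, which may be technical. Wapl protein was not measured in these files.

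The sequences next to the 7 coding ends are printed because they hold both sequence features named above, the RSS and the CTCF-binding element. Each begins 6 bases before the coding end and is read on the minus strand of mm9, the coding strand, 5′ to 3′. Capitals mark, in order, the heptamer, the nonamer and the 12 bases at the place of the CTCF-binding element. The genes lay at chr12:114826478-114826911 (Ighv2-2), chr12:114849395-114849828 (Ighv2-3), chr12:114891502-114891935 (Ighv2-4), chr12:114923693-114924126 (Ighv2-5), chr12:114954886-114955314 (Ighv2-6), chr12:115008061-115008494 (Ighv2-9-1) and chr12:115034354-115034778 (Ighv2-6-8). Each has 2 annotated exons, and the junctions fell at or near the end of the second. The coding end used here is the base before the heptamer, which for Ighv2-6 and Ighv2-6-8 lies 5 bases past the annotated end of the gene. Ighv5-2 (VH81X) is the used VH gene nearest to the D region and is shown for comparison.
Ighv2-2: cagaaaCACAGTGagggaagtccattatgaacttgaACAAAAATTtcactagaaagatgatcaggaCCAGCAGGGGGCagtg
Ighv2-3: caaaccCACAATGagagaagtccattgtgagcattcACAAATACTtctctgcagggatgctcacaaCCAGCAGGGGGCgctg
Ighv2-4: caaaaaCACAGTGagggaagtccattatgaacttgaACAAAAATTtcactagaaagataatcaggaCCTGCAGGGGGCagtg
Ighv2-5: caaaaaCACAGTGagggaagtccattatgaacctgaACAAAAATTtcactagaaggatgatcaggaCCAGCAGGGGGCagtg
Ighv2-6: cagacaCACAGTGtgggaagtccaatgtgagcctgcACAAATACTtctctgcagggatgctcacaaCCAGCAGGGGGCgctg
Ighv2-9-1: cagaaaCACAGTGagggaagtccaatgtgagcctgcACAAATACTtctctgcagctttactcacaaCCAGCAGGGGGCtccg
Ighv2-6-8: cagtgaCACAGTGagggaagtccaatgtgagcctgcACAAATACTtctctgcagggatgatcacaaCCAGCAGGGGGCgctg
Ighv5-2: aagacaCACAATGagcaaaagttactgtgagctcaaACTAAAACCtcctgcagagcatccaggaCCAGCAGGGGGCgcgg

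The heptamer was the consensus CACAGTG in 6 of the 7 genes. Ighv2-3 differed by G5A, counted from 1 at the 5′ end of the heptamer, and Ighv5-2 has the same heptamer. All 7 had a spacer of 23 bases and a nonamer with 2 mismatches to ACAAAAACC. Ighv2-2, Ighv2-4 and Ighv2-5 shared 1 nonamer (C8T and C9T) and the other 4 genes shared another (A6T and C9T). The whole RSS of Ighv2-4 was identical to that of Ighv2-2, and that of Ighv2-5 differed from it by T27C alone. The CTCF motif, spelled CCA, 2 bases of any kind, AG, 2 bases of any kind and GGC, was searched on both strands within 100 bases beyond the coding end. It began 21 bases after the nonamer in 6 of 7 genes, and Ighv2-4 had 1 mismatch there (A3T). The motif lay in that window in 24 of all 112 VH genes (21.4%), always in the orientation of the V gene, including all 6 interleaved Ighv5 neighbours and 11 of 89 genes beyond Ighv2-6-8 (12.4%). A match describes the letters and shows no binding of CTCF.

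Some of the 7 genes are hard to tell apart by sequence. Over 300 coding bases Ighv2-2 and Ighv2-4 were 98.0% identical, and Ighv2-4 and Ighv2-5 97.7% identical with 1 mismatch in the last 100 bases. Reads of near-identical genes can be dropped or moved by a mapping filter, so the levels of Ighv2-2, Ighv2-4 and Ighv2-5 against each other are uncertain. A further 3 annotated Ighv2 genes lie outside the windows. Ighv2-1, annotated as a pseudogene, 46.2 kb from the D region and with 3 mismatches in its heptamer, had 0 junctions in 25 libraries. Ighv2-7 at 279 kb had 108 junctions and Ighv2-9 at 351 kb had 4750.

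Most junctions lay at or close to the coding ends. Between 95.8% (Ighv2-4) and 99.5% (Ighv2-9-1) of the junctions of a gene, pooled over all libraries, lay on the plus strand. On the normal locus this is the orientation that joining by deletion gives. The most common plus-strand position was the intact coding end in 6 of 7 genes, with 48.1% of junctions at Ighv2-6 and 31.3% at Ighv2-2. Ighv2-3 differed, with 31.0% of its junctions 2 bases inside the coding end and 19.5% at the intact end. Between 90.2% (Ighv2-4) and 97.2% (Ighv2-6) of a gene's plus-strand junctions lay within 5 bases of the coding end on either side. Those beyond the end made up 14.3% at Ighv2-4, 6.94% at Ighv2-6, 5.21% at Ighv2-9-1 and 3.36% to 3.81% at the other 4 genes. These percents count every junction, repeats included. Ighv2-4 had 620 junctions, of which 160 were distinct, and 84 of its plus-strand junctions lay 1 base beyond the end. Differences between genes may thus rest on few joints.

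**Figure D1:**
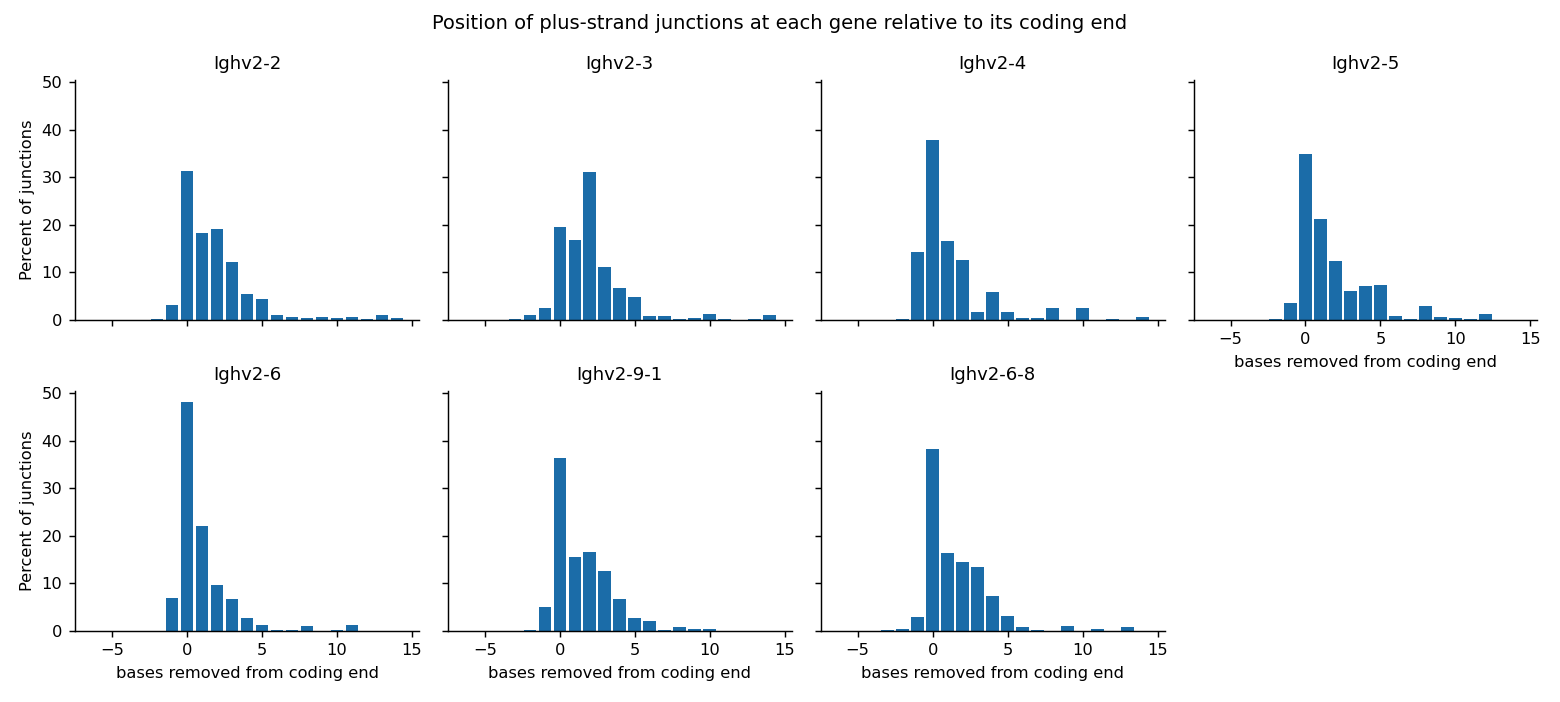
Percent of plus-strand junctions of each Ighv2 gene (vertical axis) by the number of bases removed from its coding end (horizontal axis, 0 is the intact end and negative values lie beyond it), pooled over 25 libraries. Every junction is counted, repeats included. The tallest bar is at 0 in 6 genes and at 2 in Ighv2-3, where it holds 31.0%.

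The libraries held 61194 to 1016401 junctions, made in 8 sequencing runs told apart by the read names, counting the main run of each library. Wapl-degron IAA/Dox replicate 3 drew on 2 runs, with 91.5% of its junctions from the main one, to which it was assigned. They carry no molecular identifiers, so intervals and floors cover counting error only. In Wapl-degron IAA/Dox replicate 2, 28.4% of lines were surplus to the distinct read names, against at most 0.192% in the other libraries. Junctions within the JH region took 5.06%, 64.8% and 87.4% of the WT BM libraries and 0.637% to 10.9% of all others, which moves every share of all junctions in WT BM. Shares of VH junctions are therefore given beside them. The Ighv2 lines per distinct junction were 6.92 in WT BM, 3.33 in INV BM and 1.67 to 2.70 in the line groups.

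As a share of VH junctions the 7 genes stood highest in the untreated lines and lowest in INV BM. They took 28.6% ± 0.672 (SD, n = 3) in the parental line, 29.2% ± 0.722 in the untreated Wapl-degron line and 27.5% ± 0.833 in the untreated single-Igh line. In WT BM they took 8.87% ± 1.14 (n = 3), in the Wapl-degron line with IAA/Dox 3.29% ± 0.116, in the single-Igh line with IAA/Dox 3.33% ± 0.137 and in the single-Igh INV line 2.51% ± 1.43. In INV BM they took 0.696% ± 0.165 (n = 4). The 9 untreated line libraries did not overlap any other group. The parental libraries overlapped both untreated degron groups, and the 3 groups with IAA/Dox overlapped each other.

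Of all junctions the order was different, with WT BM first. In WT BM the 7 genes took 3.49%, 1.63% and 0.545% of the 3 libraries, a mean of 1.89% ± 1.49 (SD, n = 3). With each distinct junction counted once the shares were nearer, at 3.05% in WT BM and 2.09%, 2.28% and 3.03% in the untreated parental, Wapl-degron and single-Igh lines. That count also shrank the denominator unequally. In replicate 1, D junctions went from 196098 to 21669 in WT BM and from 226670 to 13912 in the untreated Wapl-degron line. Junctions outside the Igh region were not collapsed. Of all junctions, each line counted, the untreated lines held 0.352% ± 0.0739 (single-Igh), 0.289% ± 0.0563 (parental) and 0.256% ± 0.0325 (Wapl-degron). With IAA/Dox the values were 0.157% ± 0.00667 and 0.125% ± 0.0270, in INV BM 0.0640% ± 0.0105 (n = 4), and in the single-Igh INV line 0.00909% ± 0.000625. The last group rests on 54 junctions, 20 of them distinct. Its first library held 6 junctions, 2 of them distinct.

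**Figure D2:**
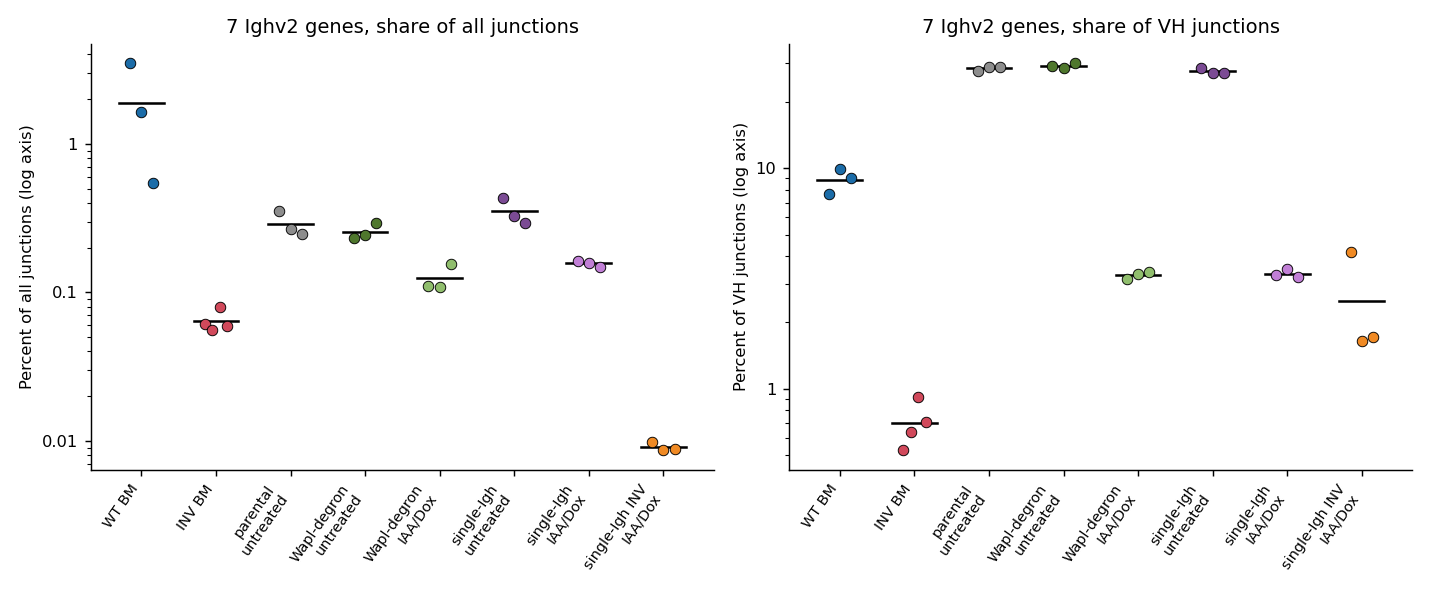
Share of the 7 Ighv2 genes together in each of 25 libraries (points) with the group mean (line), as percent of all junctions on the left and percent of VH junctions on the right, both on log axes. On the right the 9 untreated line libraries sit together above all others and the 4 INV BM libraries lie lowest.

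Within the 7 genes, use was concentrated on the gene nearest to the D region in the untreated lines and was more even in WT BM. The coding ends lay 60.2 kb (Ighv2-2), 83.1 kb (Ighv2-3), 125 kb (Ighv2-4), 157 kb (Ighv2-5), 189 kb (Ighv2-6), 242 kb (Ighv2-9-1) and 268 kb (Ighv2-6-8) from the end of the D region. These distances are those of the mm9 reference. They need not hold in the inverted groups, since the ends of the inversion are not given. Ighv2-2, the nearest, took 69.3%, 69.2% and 68.1% of the Ighv2 junctions on average in the parental, untreated Wapl-degron and untreated single-Igh lines. It took 44.9% in WT BM, 48.0% and 40.5% in the Wapl-degron and single-Igh lines with IAA/Dox, and 7.69% in INV BM. Ighv2-2 was alone the most used of the 7 in 18 of 25 libraries and tied with Ighv2-9-1 in 1, and Ighv2-4 the least used or tied for least in 23.

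The 3 genes farthest on the mm9 reference, grouped after their values were seen, were used least in the untreated lines. Together Ighv2-6, Ighv2-9-1 and Ighv2-6-8 held 7.11% ± 1.29, 8.60% ± 1.49 and 8.04% ± 1.06 of the Ighv2 junctions (SD, n = 3 each) in the 3 untreated lines. In WT BM they held 29.7% ± 0.465, in the Wapl-degron line with IAA/Dox 32.4% ± 0.923 and in the single-Igh line with IAA/Dox 38.5% ± 3.49. In INV BM they held 76.3% ± 5.20 (n = 4). The ranges of untreated lines, WT BM, IAA/Dox lines and INV BM did not overlap. The single-Igh INV line, with 26.3% to 50.0%, is too sparse to place.

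**Figure D3:**
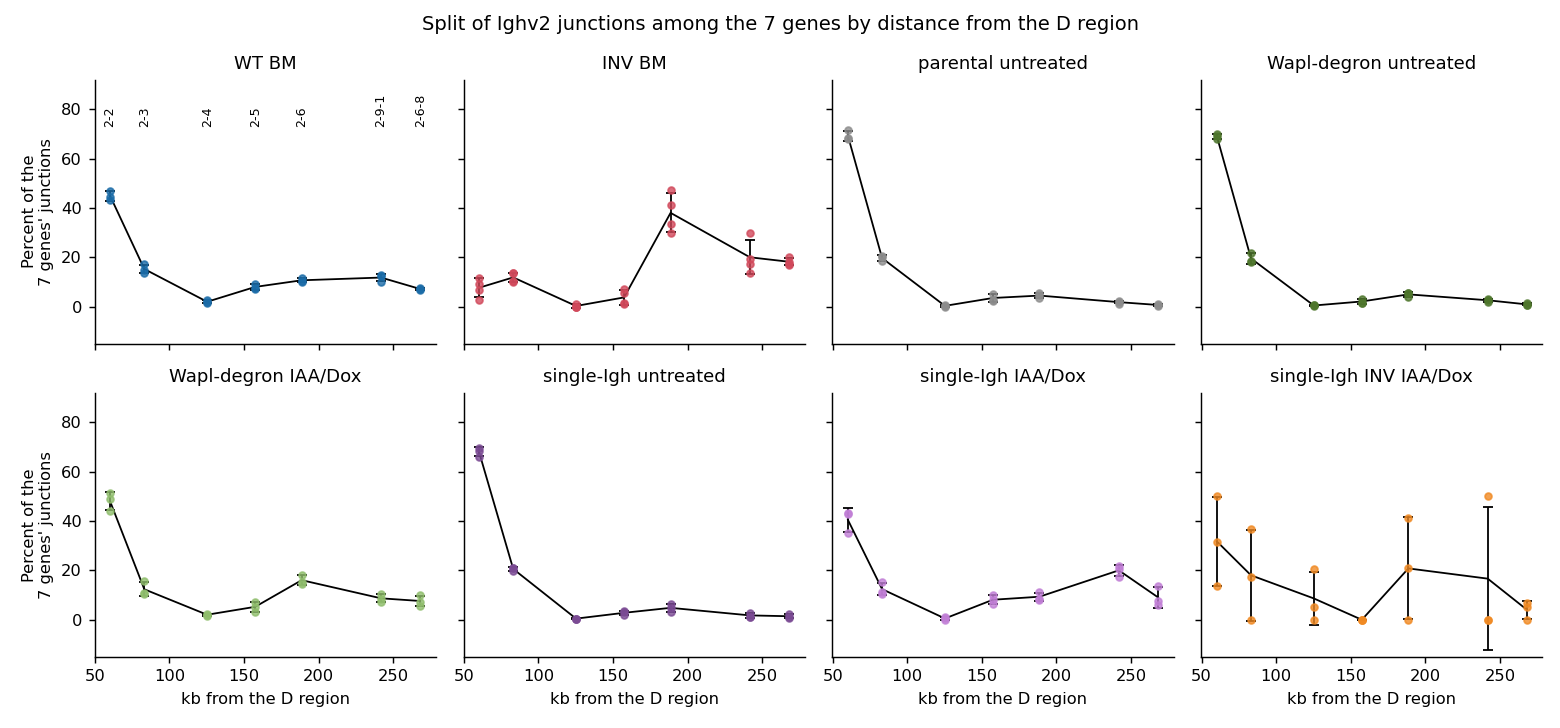
Percent of a library's Ighv2 junctions at each of the 7 genes (vertical axis) against distance from the D region in kb (horizontal axis). Distances are those of the mm9 reference in all panels, the inverted groups included. Points are libraries, the line runs through group means and bars show 1 SD. Ighv2-2 leads by far in the untreated lines, and in INV BM Ighv2-6 leads with a mean of 38.1%.

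The ratio of Ighv2-2 to Ighv5-2, 9.76 kb nearer to the D region on the mm9 reference, separated the inverted from the other groups. In WT BM it was 0.616, 0.606 and 0.427. In the 5 line groups with a normal locus the group means ran from 0.421 to 0.530. In the 4 INV BM libraries it was 0.000166, 0.000717, 0.00129 and 0.000591, and in the single-Igh INV line 0.0250, 0.00662 and 0.00294. The single-Igh INV ratios rest on 3, 6 and 4 junctions of Ighv2-2. Every library of both inverted groups lay below every library of the other 6 groups. Ighv5-2 itself was higher in both inverted groups than in WT BM and the treated single-Igh line. Most segments beyond Ighv2-6-8 were lower there, 78 of 86 in marrow and 79 of 79 in the line. A low ratio to Ighv5-2 is therefore not particular to Ighv2-2.

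Inversion in marrow was compared with WT BM by limma voom on junction counts per VH segment, scaled to all junctions, with Benjamini-Hochberg adjustment over the 272 segments tested and a call at an adjusted p under 0.05. All 7 Ighv2 genes were lower in INV BM, where 44.9% of all segments tested were called lower and 9.56% higher. Their median log2 difference was -4.74, against -2.16 over all segments, -3.69 over the 6 Ighv5 neighbours and -4.59 over 86 segments beyond Ighv2-6-8. Ighv5-2 rose, by 2.80 on the log2 scale (limma adjusted p = 5.60e-06).

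Ighv2-2 is described first as the gene nearest to the D region on the mm9 reference. It stood at 16394, 7057 and 2423 junctions per 1000000 junctions of the library (JPM) in WT BM and at 16.6, 52.1, 92.8 and 41.6 in INV BM. Every INV BM library lay below every WT BM library. The log2 difference was -7.12 (limma adjusted p = 4.75e-10, SE 0.99). Of VH junctions alone it fell from 3.60%, 4.30% and 4.01% to 0.0141%, 0.0596%, 0.107% and 0.0495%, a log2 difference of -6.56.

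Ighv2-6 had the smallest log2 difference of the 7. Its levels were 3564, 1905 and 560 JPM in WT BM and 255, 263, 236 and 200 in INV BM, again without overlap. The log2 difference was -2.59 (limma adjusted p = 0.0107, SE 0.92). Ighv2-4 was found in only 1 of 4 INV BM libraries, with 6 junctions, against 191, 217 and 114 in WT BM. Its log2 difference was -6.71 (limma adjusted p = 4.66e-06, SE 1.30).

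Ighv2-5 fell by 5.76 on the log2 scale, Ighv2-3 by 4.74, Ighv2-9-1 by 3.69 and Ighv2-6-8 by 3.07, with limma adjusted p-values up to 0.00553. The groups did not overlap for any of the 7, as for 45.2% of all 272 segments, whose INV BM libraries all lay below those of WT BM. Scaled to VH junctions all 7 were also called lower, where 45.2% of segments were. Scaled to D and VH junctions all 7 were called lower too, with a median of -6.25, where 58.8% of segments were and the median of all was -3.79. A quasi-binomial model with the spread of each segment alone called none of the 7 and 0 of 272 segments, with 4 segments at an unadjusted p under 0.05. Both groups fell in the same 2 sequencing runs. Within one run Ighv2-2 stood at 16.6 JPM under inversion (1 library) and 16394 in WT BM (1 library), and within the other run the means were 62.2 under inversion (3 libraries) and 4740 for WT BM (2 libraries).

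IAA/Dox treatment of the Wapl-degron line, which degrades tagged Wapl, was compared with no treatment. Ighv2-2 and Ighv2-3, the nearest pair, fell, where 3.91% of 128 segments tested were called lower. Ighv2-6-8, the farthest, rose, where 90.6% of segments were called higher and 94.5% in either direction. The other 4 did not pass the test. The median log2 difference over all 7 was 0.49, against 4.88 over all segments, -0.99 over the 6 Ighv5 neighbours and 5.42 over 77 segments beyond Ighv2-6-8. Of the 6 Ighv5 neighbours 3 were also called lower and 1 higher. Ighv5-2 fell by 1.74 on the log2 scale (limma adjusted p = 3.82e-21, SE 0.17).

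Ighv2-2 stood at 1603, 1709 and 1994 JPM in the untreated libraries and at 565, 530 and 687 with IAA/Dox. All treated libraries were lower. The log2 difference was -1.61 (limma adjusted p = 1.24e-12, SE 0.22). Ighv2-3 had 508, 450 and 536 JPM untreated and 115, 119 and 245 treated, also without overlap. Its log2 difference was -1.74 (limma adjusted p = 5.92e-06, SE 0.38).

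Ighv2-6-8 had 21.0, 14.9 and 39.3 JPM untreated and 79.4, 61.9 and 155 with IAA/Dox. These treated values rest on 9, 14 and 19 junctions. The log2 difference was 1.88 (limma adjusted p = 0.00190, SE 0.60). The call was lost with the sequencing run as a block (adjusted p = 0.189), with distinct junctions counted once (0.109) and in the quasi-binomial model (0.0657).

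Ighv2-4 had a log2 difference of 0.99, Ighv2-5 of 0.21, Ighv2-6 of 0.54 and Ighv2-9-1 of 0.49, with limma adjusted p-values of 0.167 to 0.716. VH junctions made up 0.797% to 0.977% of the untreated libraries and 3.27% to 4.63% of the treated ones. Scaled to VH junctions, Ighv2-2, Ighv2-3, Ighv2-5, Ighv2-6 and Ighv2-9-1 were all called lower and none higher, where 9.38% of segments were called lower and 84.4% higher. Among the 6 Ighv5 neighbours 5 were also lower on this scale. Ighv2-2 went from 20.1%, 20.02% and 20.4% to 1.61%, 1.62% and 1.48% of VH junctions. Within the only run holding both groups, Ighv2-2 stood at 530 JPM in 1 treated library and 1769 in 3 untreated ones. That treated library is replicate 2, the one with 28.4% surplus lines, and without it the log2 difference of Ighv2-2 was -1.51 (limma adjusted p = 2.39e-07).

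IAA/Dox treatment of the single-Igh line was tested in the same way. Ighv2-2 and Ighv2-3 fell, where 3.73% of 134 segments were called lower, and Ighv2-9-1 and Ighv2-6-8 rose, where 92.5% were called higher and 96.3% in either direction. The median log2 difference over the 7 was -0.08, against 5.04 over all segments, -0.84 over the 6 Ighv5 neighbours and 5.33 over 79 segments beyond Ighv2-6-8. Of the 6 Ighv5 neighbours 3 were also called lower and 1 higher. Ighv5-2 fell by 1.92 on the log2 scale (limma adjusted p = 1.45e-08, SE 0.16). Ighv2-2 went from 3038, 2154 and 2015 JPM to 698, 556 and 648, with no overlap and a log2 difference of -1.92 (limma adjusted p = 1.09e-06, SE 0.24). Ighv2-3 fell by 1.74 on the log2 scale (limma adjusted p = 5.47e-05, SE 0.31).

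Ighv2-9-1 changed most in the upward direction. It stood at 52.1, 92.3 and 38.4 JPM untreated and at 354, 278 and 310 with IAA/Dox. All treated libraries were higher, with a log2 difference of 2.31 (limma adjusted p = 2.00e-05, SE 0.37). Ighv2-6-8 had 100.4, 36.4 and 25.6 untreated and 96.6, 218 and 113 treated, which overlap. Its log2 difference was 2.02 (limma adjusted p = 0.00129, SE 0.51), and without treated replicate 2 it was 1.49 (adjusted p = 0.0629). The call was also lost with distinct junctions counted once (adjusted p = 0.169) and in the quasi-binomial model (0.0806).

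Ighv2-4, Ighv2-5 and Ighv2-6 did not pass, with log2 differences of -0.43, 0.39 and -0.08. With distinct junctions counted once these 3 were called lower, at -1.39, -1.22 and -1.12 (limma adjusted p = 0.0284, 0.0173 and 0.00896), so that 5 of the 7 were lower and 1, Ighv2-9-1, higher, where 9.01% of 111 segments were called lower and 88.3% higher. Per VH junctions 5 of the 7 were called lower and none higher, where 7.46% of segments were called lower, among them 5 of the 6 Ighv5 neighbours, and 73.1% higher. On that scale Ighv2-9-1 and Ighv2-6-8 had log2 differences of 0.35 and 0.04. Within the run that held both groups, Ighv2-2 stood at 602 JPM in 2 treated libraries and 2154 in 1 untreated one.

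Whether the treatment acted differently in the lines was tested as an interaction, and 0 of 160 segments passed. Ighv2-9-1 came nearest among the 7, with a difference of 1.83 on the log2 scale (limma adjusted p = 0.395, SE 0.64, unadjusted p = 0.00494). For Ighv2-2 the difference was -0.32 (SE 0.32) and for Ighv2-3 0.00 (SE 0.51). The lines share no libraries in this comparison.

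**Figure D4:**
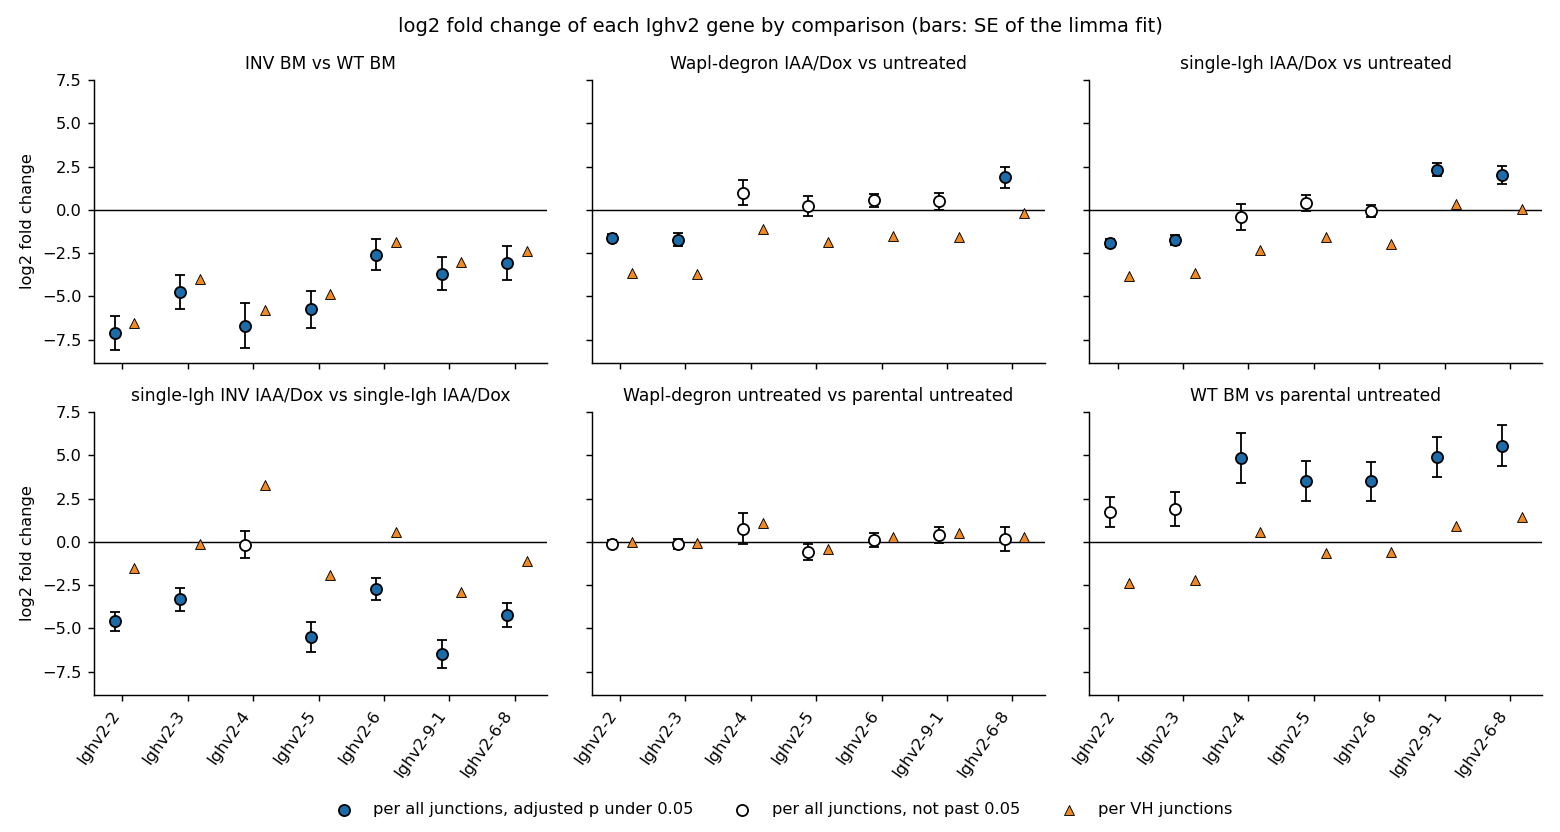
log2 difference of each Ighv2 gene, ordered by distance from the D region on the mm9 reference, in 6 comparisons. Circles are scaled to all junctions with bars for the SE of the limma fit, filled where the adjusted p was under 0.05, and triangles are scaled to VH junctions. In both IAA/Dox panels the circles of Ighv2-2 and Ighv2-3 lie below 0 and that of Ighv2-6-8 above it, and every triangle in those panels lies below its circle.

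In the treated single-Igh INV line 6 of the 7 genes were lower than in the treated single-Igh line, where 94.9% of 136 segments were called lower, 2.94% higher and 97.8% in either direction. The median over the 7 was -4.22, against -5.23 over all segments. Ighv2-2 had 49.0, 27.3 and 12.2 JPM in the inverted line and 698, 556 and 648 in the line with a normal locus, without overlap. Its log2 difference was -4.60 (limma adjusted p = 2.34e-09, SE 0.57). Ighv5-2 rose, by 1.19 (limma adjusted p = 0.00295, SE 0.37).

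Ighv2-5 was listed at 0 junctions in all 3 inverted libraries and had 15, 20 and 13 in the others. Taken against 3 counts per library, it was at least 5.32-fold lower. Ighv2-9-1 had 3, 0 and 0 junctions, all 3 of them on the minus strand and 1 distinct junction, against 33, 56 and 33. Ighv2-4 had 0, 1 and 6 junctions against 0, 3 and 1, and its log2 difference of -0.17 (SE 0.79) did not pass. Scaled to VH junctions, whose total also fell in the inverted line, 1 gene was called lower (Ighv2-9-1) and 1 higher (Ighv2-4), where 33.1% of segments were called lower and 3.68% higher. The quasi-binomial model called 3 of 7, and 22.8% of all segments.

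The inversion effect of the treated line was set against that of marrow as an interaction, where 8.51% of 282 segments passed, 8.16% lower and 0.355% higher in the line. The only segment called higher was Ighv2-4, 1 of the 7 genes, with a difference of 6.77 on the log2 scale (limma adjusted p = 0.00332, SE 1.58). It rests on 6, 0, 0 and 0 junctions in INV BM and the few in the lines given above, and with the sequencing run as a block the adjusted p was 0.0840. For Ighv2-2 the difference was 2.84 (limma adjusted p = 0.145, SE 1.32). Scaled to VH junctions it was 5.61 for Ighv2-2 (adjusted p = 2.54e-05) and 3.96 for Ighv2-3 (adjusted p = 0.00726), so that 3 of 7 passed, where 19.9% of segments did.

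The untreated Wapl-degron line was compared with the parental line to see whether the tag alone moved these genes. limma called 0 of 67 segments (0% in either direction), with 0 in the quasi-binomial model too. Ighv2-2 had 2394, 1903 and 1696 JPM in the parental line and 1603, 1709 and 1994 in the degron line, which overlap, with a log2 difference of -0.09 (limma adjusted p = 0.874, SE 0.20). The log2 differences of the other 6 ran from -0.58 (Ighv2-5, SE 0.45) to 0.77 (Ighv2-4, SE 0.92). The groups lay in different sequencing runs, so run and line cannot be told apart.

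WT BM was compared with the parental line, untreated and with a normal locus. All 7 genes had higher levels JPM in every WT BM library than in every parental one, as did 72.8% of all 184 segments, and limma called 5 of them higher, where 67.4% of 184 segments were. These were Ighv2-4, Ighv2-5, Ighv2-6, Ighv2-9-1 and Ighv2-6-8. The largest difference was that of Ighv2-6-8, with 2472, 1227 and 379 JPM in WT BM and 9.17, 26.3 and 22.1 in the parental line (log2 difference 5.57, limma adjusted p = 1.42e-05).

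Ighv2-2 and Ighv2-3 had log2 differences of 1.71 (SE 0.86) and 1.89 (SE 0.99), with limma adjusted p-values of 0.0700 and 0.0816. Without WT BM replicate 3 both passed, at 2.49 and 2.79. Per VH junctions these genes were instead called lower in WT BM, by -2.36 and -2.19 on the log2 scale, and the other 5 did not pass, where 3.8% of segments were called lower, among them 4 of the 6 Ighv5 neighbours. With D and VH junctions as library size, which leaves out the JH region, all 7 were called higher, Ighv2-2 by 3.33 and Ighv2-3 by 3.54, where 84.8% of segments were. The median of all segments was 5.49 scaled to all junctions, 1.39 scaled to VH junctions and 7.09 scaled to D and VH junctions. The quasi-binomial model called none of the 7 and 0 of 184 segments, with 0 at an unadjusted p under 0.05. Runs and cell source cannot be told apart here, since no run held both groups.

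The 3 genes with the pattern most like that of the 7 were among their 6 Ighv5 neighbours. Over the 25 libraries and 96 candidate segments, Pearson's r of log2 (JPM + 1) with the Ighv2 sum was 0.972 for Ighv5-4, 0.943 for Ighv5-6 and 0.935 for Ighv5-9-1. The next gene, at 0.913, was not among these neighbours, and the neighbour Ighv5-2 was not among the 10 highest. These correlations are descriptions over libraries that share groups and depth. Among the 7 themselves, r with the sum of the other 6 ran from 0.595 (Ighv2-4) to 0.944 (Ighv2-5).

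The D segments within the joints were compared between sets of VH genes, as a description with no test. D segments were named in distinct plus-strand joints by a match of at least 7 bases, in joints with at most 30 bases between VH and JH, so long joints are missing. Ighd1-1 (DFL16.1), at the VH side of the D region, made up 36.9%, 37.98% and 41.3% of named D segments joined to the 7 genes in WT BM. At Ighv5-2 it made up 24.5%, 24.1% and 29.6%, and at the other annotated VH genes 46.0%, 47.2% and 46.9%. The 7 genes thus lay between these sets in every WT BM library.

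In the parental line Ighd1-1 use at the 7 genes was 59.6%, 67.9% and 67.7%, with 43.5%, 45.4% and 45.9% at Ighv5-2 and 81.8%, 82.4% and 81.6% at the other VH genes. The untreated Wapl-degron line gave 65.8%, 72.3% and 73.0% at the 7 genes. With IAA/Dox it gave 39.7%, 30.8% and 37.5%, below all untreated libraries of that line and over 84 to 137 distinct joints. In the single-Igh line the 7 genes stood at 55.2%, 55.6% and 56.9% untreated and 53.8%, 52.4% and 63.0% with IAA/Dox, which overlap. By gene in the untreated Wapl-degron line, mean Ighd1-1 use was 65.0% at Ighv2-2 and 76.9% at Ighv2-3, the 2 genes with at least 78 distinct joints in each library. It was 76.7% at Ighv2-4, 96.7% at Ighv2-5, 82.3% at Ighv2-6, 91.9% at Ighv2-9-1 and 86.9% at Ighv2-6-8, each with a library of 16 or fewer distinct joints.

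Reading frame differed between gene sets in WT BM. There 46.7%, 32.1% and 31.5% of distinct joints of the 7 genes were in frame, below the 64.8%, 47.2% and 46.5% of the other VH genes in each library. In the parental line the values were 29.4%, 34.7% and 32.1% against 29.9%, 33.8% and 34.2%, which overlap. In INV BM, with 58 to 126 distinct joints of the 7 genes, they were 45.2%, 35.1%, 48.1% and 37.7% against 47.1%, 36.8%, 44.9% and 47.0%, which also overlap. Ighv2-9-1, singled out after its values were seen, had the highest in-frame share of the 7 in each WT BM library, with 61.4%, 46.7% and 50.6% of 323, 78 and 92 distinct joints. WT BM replicate 1, which stood above the others in both sets, also came from another sequencing run, and the part of the run was not tested.

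**Figure D5:**
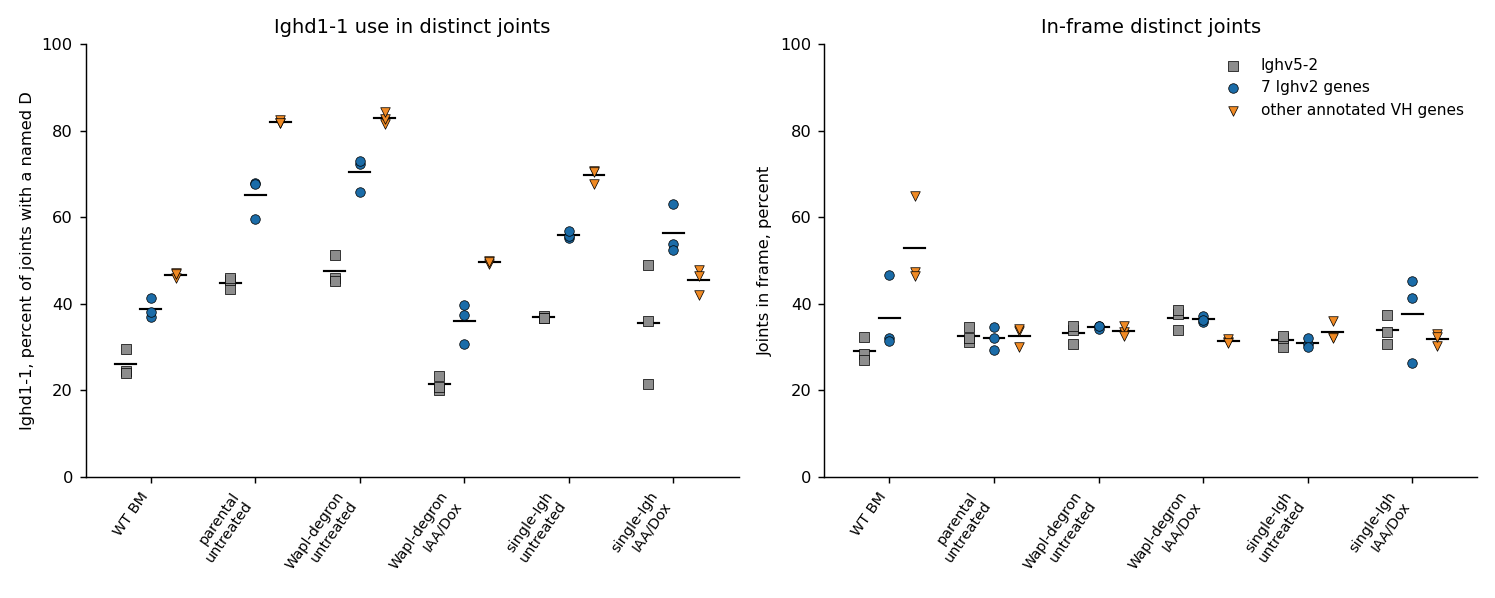
Percent of distinct joints with a named D segment that hold Ighd1-1 (left) and percent of distinct joints in frame (right), for Ighv5-2, the 7 Ighv2 genes and the other annotated VH genes in 6 groups, with a point for each library and a line at the mean. On the left the Ighv2 genes lie between the other sets in WT BM and the untreated lines, and on the right the other VH genes stand above the Ighv2 genes in all 3 WT BM libraries.

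Minus-strand junctions, the orientation that joining by inversion gives on the normal locus, were rare at the 7 genes in WT BM and untreated lines. Their share was larger in the inverted and IAA/Dox groups, and the reason was not tested. They made up 185 of 27838 junctions in WT BM (0.665%) and 0.886% to 1.22% in the untreated lines. Of all VH junctions in the WT BM libraries, 181924 of 182742, 83149 of 83648 and 61041 of 61394 lay on the plus strand. In the parental line the counts were 2768 of 2772, 5836 of 5941 and 5337 of 5434. In the untreated Wapl-degron line they were 1858 of 1900, 7301 of 7442 and 7861 of 7962, and in the untreated single-Igh line 4070 of 4109, 8462 of 8566 and 5901 of 5981. In INV BM the minus-strand junctions of the 7 genes were 64 of 1202 (5.32%), of which Ighv2-3 held 23 and Ighv2-6-8 held 22. Of all VH junctions in the INV BM libraries, 87634 of 92022, 27128 of 28532, 22918 of 24237 and 42146 of 44444 lay on the plus strand. The minus-strand share of the 7 genes in INV BM was thus close to that over all VH junctions. With IAA/Dox the minus-strand junctions of the 7 genes were 40 of 562 (7.12%) in the Wapl-degron line and 19 of 630 (3.02%) in the single-Igh line. Of all VH junctions, 3900 of 3964, 7274 of 7387 and 5578 of 5665 lay on the plus strand in the treated Wapl-degron line. In the treated single-Igh line the counts were 4535 of 4598, 9056 of 9172 and 4854 of 4926. In the single-Igh INV line the minus-strand junctions of the 7 genes were 14 of 54 (25.9%). Of all VH junctions there, 134 of 144, 1036 of 1149 and 1550 of 1685 lay on the plus strand.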

How the data were processed

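The deposited lists hold 1 junction a line with its chromosome, position, strand and bait end, per the file headers. These other values, genomic positions, carry no normalization by the authors. Bowtie2 and mm9 are named in the submitters' processing notes, and versions and thresholds are not given in the sources used here. The file headers name filters for mapping quality and duplicates. The 25 full JH-bait lists were used. A replicate 4 of WT BM came only as a shorter list, a selection of junctions whose rule is not given, and this list and the others of its kind were not used here.

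Junctions were counted per VH segment, a cluster of positions pooled over libraries with gaps of up to 20 bases (706 segments, 104 of them at an annotated gene). GENCODE vM1 genes were named through RefSeq synonyms, 112 of 112. Segments with at least 10 junctions in a comparison entered a linear model of voom-weighted log2 counts (limma 3.58.1 in R 4.3.3, with 0.5 added to each count and moderated variances) on the libraries of both groups, with all junctions as library size, Benjamini-Hochberg adjustment and a threshold of 0.05. The fit was tested on simulated data. Sequences were read from the NCBIM37 (mm9) genome with pysam 0.24.0 and compared with Biopython 1.88. Other tools were Python 3.11.15, numpy 2.4.6, pandas 2.3.3, scipy 1.17.1 and matplotlib 3.10.9.

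The text names the 7 genes, Ighv5-2, the other annotated Ighv2 genes and the 3 segments most like the Ighv2 sum. The 7 genes and the lists were chosen with earlier results of these data known. Pairs of replicates were compared by a chi-square test over the JH, D, VH and other regions. All 27 pairs differed beyond counting error. Over VH segments alone 1 pair, treated single-Igh libraries 1 and 3, lay within counting error, and both were kept.

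Same-numbered replicates deviated together only between the untreated Wapl-degron and parental lines (correlations of deviations 0.352, 0.405 and 0.116), which the rule used here counts as pairing by the data; the labels name no shared batch. Alternatives were other library sizes, distinct junctions, other count minimums, 1 strand, a quasi-binomial model, blocks for replicate number and sequencing run, and each library left out in turn.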

Additional observations from a re-analysis of the deposited data

Results flagged for a closer look

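A test for a library that stands far from the others of its group was run only in INV BM, the group with 4 libraries. The groups with 3 libraries, WT BM among them, were not tested. Among the 16 tests 3 found such a library, and chance alone marks about 1 in 20. INV BM replicate 1 stood at 7.64 JPM (junctions per 1000000) of Ighv2-4 and 0.00652% of VH junctions, from 6 junctions, while the other 3 INV BM libraries had 0. Both values come from the same 6 junctions, and beside 3 libraries at 0 any count above 0 would be marked. INV BM replicate 3 stood at 161 JPM of Ighv2-6-8, from 45 junctions, against 101 to 104 in the other 3.

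The inversion effect on Ighv2-4 differed between the treated single-Igh line and marrow by 6.77 on the log2 scale (limma interaction term, adjusted p = 0.00332). The gene had 7 junctions in the inverted line, 2 of them distinct.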

How the results depend on the processing

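Over 896 alternative values for single genes, 835 kept direction and side of the threshold, 31 lost the call, 18 gained one and 12 reversed. With VH junctions as library size, the log2 differences that reversed were, for the Wapl-degron line with IAA/Dox, -1.88 (Ighv2-5), -1.53 (Ighv2-6), -1.56 (Ighv2-9-1) and -0.17 (Ighv2-6-8), and for the single-Igh line -1.58 (Ighv2-5, also -1.22 with distinct junctions). For the single-Igh INV line they were 3.29 (Ighv2-4) and 0.57 (Ighv2-6), and for WT BM against the parental line -2.36 (Ighv2-2), -2.19 (Ighv2-3), -0.65 (Ighv2-5) and -0.56 (Ighv2-6). The VH share of all junctions, by which the VH scale departs from the main one, differed between the groups of each of these comparisons. Why it differed was not tested. On that scale the number of the 7 genes called was 5 in the Wapl-degron line, 2 in the single-Igh INV line, 2 in WT BM against the parental line and 3 in the interaction of inversion with system. That interaction gave 3 with D and VH junctions, 3 with distinct junctions, 0 with the run as a block, and 1 to 2 with 1 library left out (2 without WT BM replicate 1 or 3). The share of all segments that passed was not computed for these settings of the interaction. The quasi-binomial model called 0 in INV BM, 3 in the single-Igh INV line and 0 in WT BM against the parental line. With at least 100 junctions per segment only 2 of the 7 genes were tested in the single-Igh INV line, and both were called. The share of all segments called at that minimum was not computed.

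The share of the 7 genes moved with the denominator and with the junctions counted. Of VH junctions it was 8.87% (WT BM), 0.696% (INV BM), 28.6% (parental), 29.2% and 3.29% (Wapl-degron untreated and treated), 27.5% and 3.33% (single-Igh untreated and treated) and 2.51% (single-Igh INV). With distinct junctions it was 3.05% (WT BM), 0.140% (INV BM), 2.09%, 2.28%, 0.564%, 3.03%, 0.645% and 0.0603% in the same order. Of D and VH junctions it was 4.44% in WT BM and 0.166% in the treated single-Igh line. With only the plus-strand junctions of the 7 genes counted, it was 0.00604% of all junctions in the single-Igh INV line. With 1 library left out the WT BM share of all junctions ran from 1.09% (without replicate 1) to 2.56%.

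With the replicate number as a block, 7 genes were called in INV BM, 3 in the Wapl-degron line, 4 in the single-Igh line, 6 in the single-Igh INV line, 0 between untreated and parental lines and 7 in WT BM against the parental line, where it was 5. The run as a block was not run for the last pair of comparisons, which share no run. The single-Igh INV line rests on 20 distinct Ighv2 junctions.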
